A study of Mus musculus with 11 samples.

Results

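LPS-treated BV2 cells, an immortalised line of mouse microglia, were compared with and without siRNA against Tet2, over all 26061 genes of the deposited table. The comparison used every LPS-treated library, 5 of the series' 11. Of these, 3 came from cells given a non-targeting siRNA (siScr, called control siRNA here), and 2 from cells given Tet2 siRNAs (siTet2), which carry the replicate numbers 2 and 3. Both groups were transfected with a lipid reagent and received lipopolysaccharide (LPS) 48 h later, at 1 µg/ml for 3 h, in medium whose fetal calf serum had been lowered from 10% to 5%. LPS, transfection and the serum change were therefore shared, and the siRNA was what differed. The other 6 libraries came from cells without LPS, 3 per siRNA, and served to estimate the spread and to set untreated values beside those after LPS. All libraries came from a single cell line, and no label says that replicates were separate cultures, so p-values measure the spread between these libraries, which may be technical.

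TET2 is a dioxygenase that oxidises 5-methylcytosine in DNA, a step towards demethylation, and it can also recruit other chromatin enzymes to promoters. LPS binds Toll-like receptor 4 on macrophages and microglia. That receptor signals through MyD88 to NF-kB and early cytokine genes, and through TRIF to IRF3 and interferon beta, which then acts back on the cells through its receptor to induce interferon-stimulated genes. Microglia, the macrophages of the brain, also carry a set of receptors, complement proteins and lysosomal enzymes for phagocytosis.

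Gene-assigned reads ranged from 16829956 to 21958270 in the 5 libraries, and between 13672 and 13960 genes were detected in each, with similar ranges in both siRNA groups. The lowest and highest of the 11 libraries held 8739716 and 23030426 reads. The shallowest were an untreated Tet2 siRNA library (replicate 2) and an untreated control library (replicate 3, with 16406 genes detected), and values from untreated cells are given with and without them where they differ. In the 5 libraries, deviations from each gene's mean over all 11 libraries were weakly related to the GC content of transcripts. Spearman's rho over 12205 genes was 0.19, -0.09 and -0.15 in the control libraries after LPS and -0.25 and -0.23 in the Tet2 siRNA ones. The relation was stronger in untreated control replicate 3, at 0.48. Removing those trends moved no median of the 31 gene lists below by more than 0.111. Of 11 macrophage and microglial markers all were detected, whereas markers of most other cell types were low. Summed normalised reads of 6 neuronal markers were at most 16.9 and those of 6 astrocyte markers at most 9.26. Those of 7 oligodendrocyte markers were 65.2, 59.7 and 45.1 in the controls and 41.3 and 38.7 with Tet2 siRNA, and those of 7 lymphocyte markers between 16.7 and 26.7 in the controls and at 0 and 10.7 with Tet2 siRNA. Mbp and Cd4, of these lists, lay below all controls in both Tet2 siRNA libraries, and their part in the results was not tested. Snap25, Slc17a7, Aqp4, Aldh1l1, Gja1, Mog, Mag, Olig1, Olig2, Sox10, Cldn5, Col1a1, Col3a1, Pdgfra, Cd3e, Cd3d, Cd8a and Cd79a were at 0 in all 5 libraries. Well above these was Kdr, a vascular endothelial growth factor receptor, with 3817, 4057 and 3181 normalised reads in the controls and 2443 and 2219 with Tet2 siRNA.

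Tet2, the siRNA's target, was lower in both Tet2 siRNA libraries than in any control. Normalised Tet2 reads were 10405, 16792 and 14762 with control siRNA (replicates 1, 2 and 3, the order kept throughout) and 7969 and 9238 with Tet2 siRNA (replicates 2 and 3). Below, the normalised reads of the 3 controls are set against those of the 2 Tet2 siRNA libraries in these orders, and brackets hold the fitted log2 difference with its standard error. The Tet2 siRNA mean was 61.5% of the control mean, a fitted difference of -0.67 (SE 0.22) on the log2 scale. Limma gave an unadjusted p of 0.00906, which became 0.165 when adjusted over 12486 genes, and a two-sided exact permutation test over the 5 libraries gave p = 0.2, where the smallest possible is 0.1. Tet3, a related dioxygenase, stood at 1865, 1547 and 1809.7 with control siRNA and 1925 and 1733 with Tet2 siRNA, within the controls' spread but for 1 library slightly above it. Tet1 fell below the filter on low values.

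Other genes that write, read or remove DNA methylation lay on both sides of the controls. Of 27 tested, 7 (25.9%) lay below all controls in both Tet2 siRNA libraries and 4 (14.8%) above. These shares were near those of all genes, 21.0% and 17.9%. Differences ran from -1.41 to 1.30, with a median of -0.01. Dnmt3a, a de novo DNA methyltransferase, had 5019.9, 5834 and 5854 normalised reads in the controls and 3055 and 4026 with Tet2 siRNA (-0.66, SE 0.19, limma adjusted p = 0.139). Gadd45g, a stress gene that has been linked to DNA demethylation, was at 351, 224 and 164 against 51.4 and 95.6 (-1.41, SE 0.33), and the cytidine deaminase Apobec1 at 1081, 1308 and 856 against 587 and 603 (-0.81, SE 0.19). All 3 lay lower with Tet2 siRNA in both libraries, and none passed the adjusted threshold.

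Across the genome no gene passed the test, although the Tet2 siRNA libraries lay outside the control range at many genes. Of 12486 genes tested, limma called 0 lower (0%) and 0 higher (0%) at an adjusted p under 0.05, and the smallest adjusted p was 0.0833. At an unadjusted p under 0.05 there were 1269 lower genes (10.2%) and 862 higher ones (6.90%). Both Tet2 siRNA libraries lay below all 3 controls at 2621 genes (21.0%) and above all 3 at 2233 (17.9%). These shares are the background for the counts of gene lists below. The lists were chosen with earlier results of these data known, so such comparisons are descriptions and not tests. Among the genes outside the control range, 232 lay lower and 182 higher by at least 1 on the log2 scale, a doubling or halving. The median difference of all genes was -0.02.

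The outcome of the adjusted test rested on control replicate 3. Without it limma called 101 genes lower and 19 higher, of which 97 and 19 also lay outside the range of all 3 controls when replicate 3 was counted. Leaving out any other library called none in either direction. The 2 Tet2 siRNA libraries also differed in how far they lay from the controls. The standard deviation of log2 deviations from the control mean over genes was 0.57 in replicate 2 and 0.34 in replicate 3, and replicate 2 had the larger median deviation in 30 of 31 gene lists (ER stress genes were the exception). Tet2 reads were also the lower of the pair in replicate 2, and whether this bears on the deviations was not tested.

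**Figure D1:**
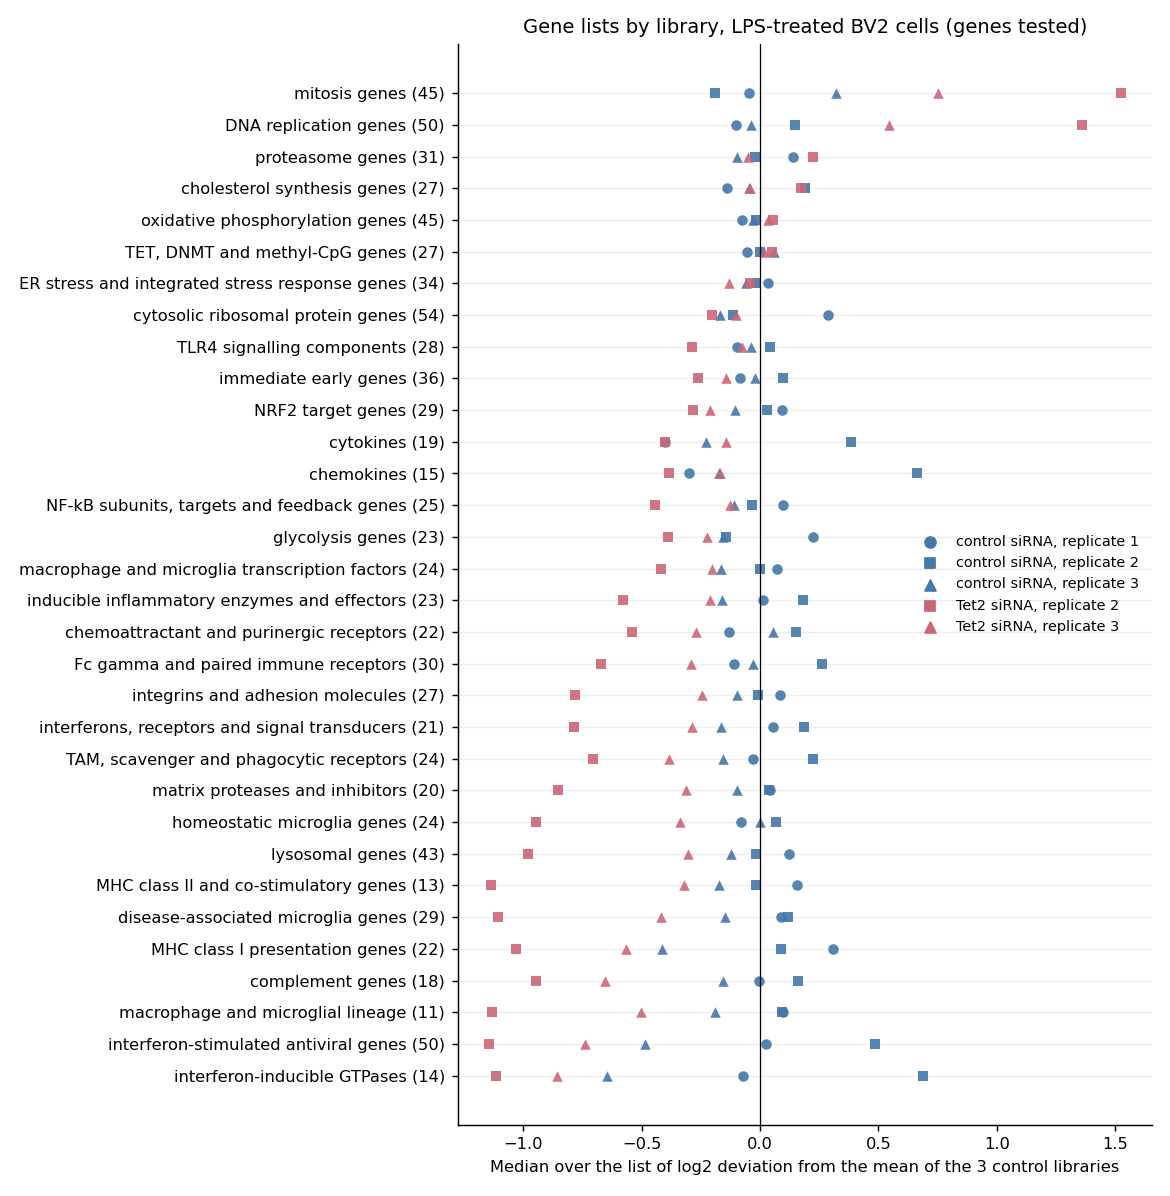
Median log2 deviation from the mean of the 3 LPS-treated control libraries (x axis) for each gene list (y axis, number of genes tested in brackets), with 1 marker per LPS-treated library. In 20 of 31 lists both Tet2 siRNA libraries lay below all 3 controls and in 3 above them, the mitosis and replication lists farthest, and replicate 2 lay farther out than replicate 3 in 30. The lineage markers are plotted as a further line.

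Interferon-stimulated genes were lower with Tet2 siRNA. Of 50 antiviral interferon-stimulated genes tested all had a difference below 0, with a median of -0.89, and 41 (82.0%) lay below all controls in both Tet2 siRNA libraries against 21.0% of all genes. None lay above. At an unadjusted limma p under 0.05 there were 43, against 10.2% of all genes, and 0 passed adjustment. The list's median deviation was 0.03, 0.49 and -0.48 in the control libraries and -1.14 and -0.74 in the Tet2 siRNA ones, so the controls themselves spanned almost 1 log2 unit and control replicate 3 came closest to the Tet2 siRNA cells. Without that control, 13 of the 50 passed the adjusted test, where 101 of all 12486 genes were called lower.

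Mx2, an interferon-induced dynamin-like GTPase that restricts viruses, had 4028, 5001 and 2783 normalised reads with control siRNA and 1151 and 1987 with Tet2 siRNA, a difference of -1.32 (SE 0.31) and an unadjusted p of 0.000872. Both Tet2 siRNA values lay under the lowest control, control replicate 3. Parp12, an interferon-induced ADP-ribosyltransferase, had 4492, 4422 and 2679.8 against 1539 and 2144 (-1.04, SE 0.23). Slfn8, of the Schlafen family that restrains cell growth and virus replication, had 3672, 4629.8 and 2479 against 1620.3 and 2009 (-0.94, SE 0.23). Oasl1, an oligoadenylate synthetase-like protein that limits translation of Irf7, had 22469.6, 21318 and 11940.3 against 7665 and 9331 (-1.08, SE 0.27). In each of these genes control replicate 3 was the lowest control and Tet2 siRNA replicate 2 the lowest library of all. Ifit2, which binds viral RNA, had 21019, 35963 and 12915 against 6757 and 9511 (-1.41, SE 0.42). The Oas and Ifit families have near-identical members among which reads may have been split, so single values there are uncertain.

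The interferon-inducible GTPases, which coat and break the vacuoles of intracellular pathogens, differed to a similar degree. Of 14 tested, 10 (71.4%) lay below all controls and none above, and the median difference was -1.01, or -0.61 without control replicate 2. Igtp had 2088, 3367 and 1264 normalised reads in the controls and 559.8 and 926 with Tet2 siRNA (-1.48, SE 0.33, limma adjusted p = 0.122). Irgm2 had 3632, 4313 and 2012 against 1037 and 1457 (-1.34, SE 0.28, limma adjusted p = 0.122). Ifi47 was at 385, 677 and 195 against 98.9 and 154 (-1.39, SE 0.39), and Tgtp1, which has a near-identical neighbour Tgtp2, was at 84.4, 266 and 64.7 against 40.5 and 37.6 (-1.13, SE 0.39). Control replicate 2 was the highest library in all 4, and its median deviation over the list, 0.69, was about as far above the control mean as that of control replicate 3, -0.64, was below it.

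Promoters of 3 interferon genes that hold the core of the interferon-stimulated response element, a site bound by IRF factors, are shown for the sequence around it. These genes had the smallest p among those that met the conditions of the choice. The conditions were the element, inside the printed window near the start, and groups that did not overlap, and promoters of 1 chromosome were left out. The promoters shown are from RefSeq on GRCm38.p6, 120 bases before to 20 bases from the annotated start. They are given in the direction of the gene, with the element (GAAANNGAAA, in either strand) in capitals. They run over chr11:58214857-58214996 (plus strand), chr11:58199436-58199575 (plus strand) and chr11:83020791-83020930 (minus strand).
Irgm2: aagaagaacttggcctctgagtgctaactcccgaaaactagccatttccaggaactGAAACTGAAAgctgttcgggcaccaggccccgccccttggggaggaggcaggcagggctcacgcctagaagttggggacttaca
Igtp: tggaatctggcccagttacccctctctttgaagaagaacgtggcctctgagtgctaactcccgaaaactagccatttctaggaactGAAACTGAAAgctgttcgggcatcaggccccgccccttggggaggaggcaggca
Slfn8: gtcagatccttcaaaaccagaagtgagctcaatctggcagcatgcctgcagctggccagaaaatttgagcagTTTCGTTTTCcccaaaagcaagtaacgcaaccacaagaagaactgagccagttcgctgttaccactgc
The element began at base -64, -34 and -48 from the start base, in that order, and lay in the reverse direction in Slfn8. Irgm2 and Igtp shared an unbroken run of 29 bases around it. Over the full promoter windows of 300 bases (250 before the start), RefSeq held a promoter for 9339 of the genes tested, of which 3.95% had the element. It was in 17 of 36 antiviral genes with a promoter (47.2%) and in 9 of 10 GTPases (90.0%), but in 2 of 33 lysosomal genes and 1 of 39 mitosis genes. Genes tested that had the element had a median difference of -0.17, and those without it -0.02. In genes with the element, groups lay apart with lower values in 32.8% and with higher ones in 14.1%. The shares of all genes tested, with or without a promoter, were 21.0% and 17.9%. The 121 lower genes with the element include 15 antiviral genes and 8 GTPases of the lists above. The median with and without the element was -1.04 and -0.87 in the antiviral list, but -1.01 and -1.39 in the GTPases (1 lacked it) and -0.64 and -0.81 in the MHC class I presentation genes, of which 5 of 19 had it.

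Genes of the interferon pathway itself had a smaller median difference than the antiviral list, though single members differed as much. Ifnb1, which encodes interferon beta, had 76.5, 182 and 23.5 normalised reads in the controls and 53.7 and 16.1 with Tet2 siRNA. The groups overlapped, with the lowest control below 1 Tet2 siRNA library, and the difference was -0.82, SE 0.45 (limma adjusted p = 0.372). Of 21 interferons, receptors and signal transducers, 13 lay below all controls, none above, and the median difference was -0.59, or -0.29 without Tet2 siRNA replicate 2. Irf1, a transcription factor induced by interferon and NF-kB, was at 11947, 11732 and 7843 against 3251 and 6351 (-1.18, SE 0.29). Irf5 was at 3079.6, 3319 and 2054 against 1291 and 1595 (-0.93, SE 0.24), and Irf8, a lineage factor of microglia, at 1076, 1289 and 774 against 581 and 564 (-0.81, SE 0.23). Socs3, a feedback inhibitor of cytokine receptors, was at 2038, 2247 and 1414 against 948 and 1049.5 (-0.88, SE 0.20). Control replicate 3 was again the lowest control in all 4.

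Antigen presentation genes, many of them interferon-induced, were lower as a group. Of 22 MHC class I presentation genes 17 (77.3%) lay below all controls and none above, with a median difference of -0.82. Tap1, the peptide transporter subunit, had 5277, 3516 and 1819.5 normalised reads with control siRNA and 836 and 1493 with Tet2 siRNA (-1.51, SE 0.38, limma adjusted p = 0.122), and its partner Tap2 had 2247, 1355 and 720.0 against 342 and 611 (-1.45, SE 0.38). The controls spread widely here too, from a high first replicate to a low replicate 3 in both genes. Tapbpl, which edits the bound peptide, had 375, 444 and 309 against 162 and 190.1 (-0.97, SE 0.22), and the immunoproteasome subunit Psmb9 had 508, 393 and 262 against 118 and 199 (-1.14, SE 0.28). Over the list, control replicate 3 at -0.41 lay close to Tet2 siRNA replicate 3 at -0.56.

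Of 13 MHC class II and co-stimulatory genes tested, 8 lay below all controls and none above, with a median difference of -0.75. That median was -0.32 without Tet2 siRNA replicate 2 and -1.14 without replicate 3. Cd86, the co-stimulatory ligand of CD28, had tight groups, 1603, 1745 and 1325 with control siRNA and 653 and 796 with Tet2 siRNA. Its difference was -1.07 (SE 0.18), its unadjusted p was 6.12e-05 and its adjusted p 0.112, or 0.0326 without control replicate 3. Cd274, which encodes PD-L1, had 12122, 16316 and 7931 against 2785 and 6436 (-1.45, SE 0.39). Cd74, the invariant chain of MHC class II, had 9537, 5884 and 4853 against 2017 and 3328 (-1.31, SE 0.34), and Havcr2, the receptor TIM-3, 1394, 1169.8 and 1149 against 664 and 885 (-0.66, SE 0.22). The Tet2 siRNA values were separate from the controls in all 4.

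**Figure D2:**
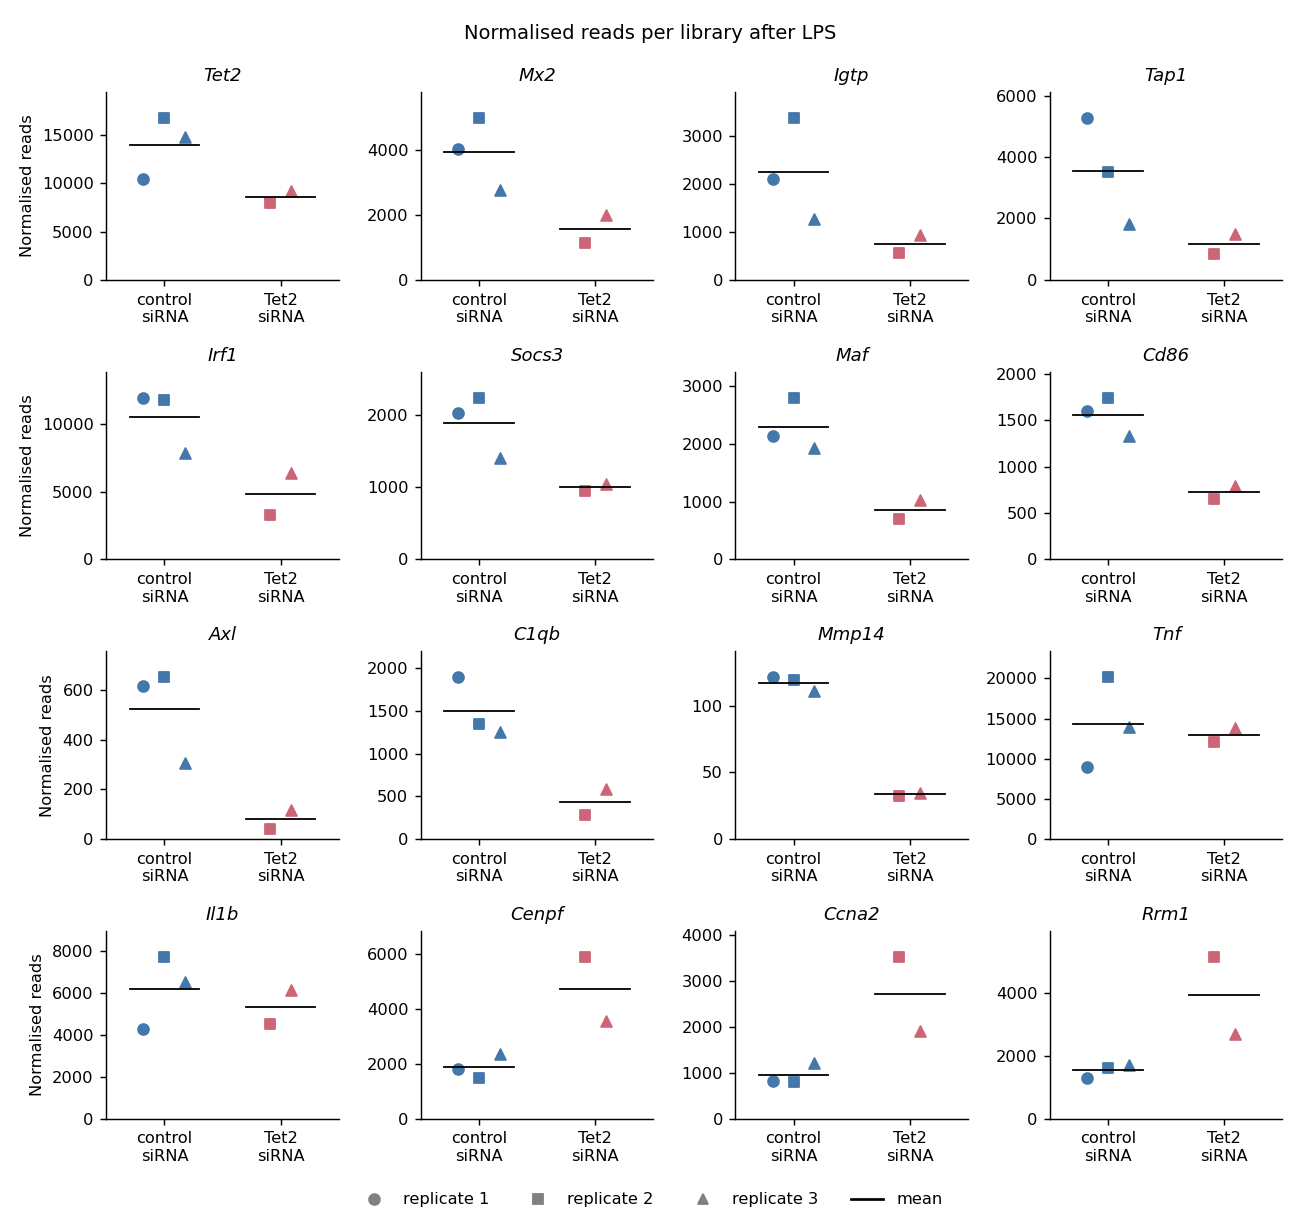
Normalised reads (y axes from 0, a scale per gene) of 16 genes in the 3 control siRNA and 2 Tet2 siRNA libraries after LPS, with a marker per library and a line at each group's mean. Interferon, presentation and microglial genes have both Tet2 siRNA libraries under all controls, Cenpf, Ccna2 and Rrm1 have both over them, and for Tnf and Il1b the groups overlap.

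Cytokines and chemokines, the usual readout of LPS, mostly overlapped between the groups. Tnf had 8937, 20155 and 13996 normalised reads in the controls and 12125 and 13822 with Tet2 siRNA, so that both Tet2 siRNA values lay inside the control range (-0.07, SE 0.37, limma adjusted p = 0.942). Il1b, at 4281, 7745 and 6556 against 4540.0 and 6159.8 (-0.18, SE 0.29), also lay inside it. Il6 had 622, 2108 and 582 against 593 and 718 (-0.47, SE 0.41), with control replicate 2 far above the other libraries. The signs of Tnf, Il1b and Il6 turned when single libraries were left out, and that of Tnf turned also under quantile normalisation. Of 19 cytokines tested, 4 lay below all controls and 1 above, shares of 21.1% and 5.26% against 21.0% and 17.9% of all genes. The median difference was -0.19, and between -0.40 and -0.0027 when single libraries were left out, nearest 0 without control replicate 2. Csf1, the growth factor of macrophages, had 17139, 15437 and 12693 against 5216 and 11747 (-0.93, SE 0.30), Il27 178, 299 and 139 against 90.3 and 111 (-0.80, SE 0.28), and Csf3, the granulocyte growth factor, 68.6, 145 and 140.3 against 166 and 199.8 (0.57, SE 0.24, the only cytokine above all controls).

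Of 15 chemokines tested, 2 (13.3%) lay below all controls and 1 (6.67%) above, against 21.0% and 17.9% of all genes. The median difference was -0.26, which turned to 0.06 without control replicate 2 and was -0.17 without Tet2 siRNA replicate 2. The 2 lower ones were Cxcl10, an interferon-induced chemokine for T cells, and the monocyte chemokine Ccl7. Cxcl10 had 17093, 31910.4 and 14610.2 in the controls and 10156 and 10281 with Tet2 siRNA (-0.96, SE 0.48, limma adjusted p = 0.322). Ccl7 had 853, 1500.0 and 603 against 409 and 407 (-1.11, SE 0.43). Ccl2, at 4206, 9923 and 5391 against 4649 and 7164, and Ccl5, at 2887, 5812 and 2694 against 2631 and 2925, overlapped between groups, with differences of -0.08 and -0.36, and the sign of Ccl2 turned under quantile normalisation (0.08). Cxcl16 was the higher one, at 64.1, 62.8 and 92.2 against 94.2 and 104 (0.34, SE 0.22).

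NF-kB genes had small differences, nearly all below 0. Of 25 subunits, targets and feedback genes 24 had a difference below 0, against 52.7% of all genes. Of the 25, 5 lay below all controls, a share close to the 21.0% of all genes. None lay above, against 17.9% of all genes. Lower members numbered 18 without Tet2 siRNA replicate 3, where 4494 of all 12486 genes lay lower, and 11 without control replicate 3, where 3307 of all genes did. The median difference was -0.29, -0.13 without Tet2 siRNA replicate 2, -0.44 without replicate 3, or -0.18 after trends with length and GC content were removed. Nfkbia, the feedback inhibitor IkB alpha, had 13951, 10101 and 8975 against 6868 and 7911 (-0.55, SE 0.36), and Cflar, an inhibitor of caspase-8, 8589.9, 10025 and 8267 against 5332 and 7842 (-0.46, SE 0.20). Tnfaip2 had 24987, 22558 and 22615 against 14066 and 21931, where Tet2 siRNA replicate 3 lay just below the controls. Of 28 genes of the TLR4 pathway 10 (35.7%) lay lower and 3 (10.7%) higher, against 21.0% and 17.9% of all genes. Their median was -0.18 (-0.30 to -0.08 with single libraries left out, nearest 0 without Tet2 siRNA replicate 2 and farthest without control replicate 1). They included the adaptor Myd88, at 3559.9, 3010.4 and 2359 against 2112 and 2015 (-0.50, SE 0.23), and the kinase Irak2, at 3321, 2405 and 2116 against 1212 and 1784 (-0.79, SE 0.27).

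Inducible enzymes and effectors were mixed, with 11 of 23 (47.8%) below all controls and 2 (8.70%) above, against 21.0% and 17.9% of all genes. Their median was -0.48, or -0.21 without Tet2 siRNA replicate 2. Arg1, which takes arginine to ornithine and marks alternatively activated macrophages, had 2751, 2267 and 3059 normalised reads with control siRNA and 254 and 1134 with Tet2 siRNA, 25.8% of the control mean. Its difference was -2.23, SE 0.56 (limma adjusted p = 0.122), and the Tet2 siRNA libraries themselves lay far apart. Nos2, which uses the same substrate to make nitric oxide, had 13990.0, 11758 and 8542 against 3177 and 8516 (-1.10, SE 0.53), and Tet2 siRNA replicate 3 was level with the lowest control. Ptgs2, the inducible cyclooxygenase, had 9510.0, 13904 and 10417 against 12728 and 12530.1 (0.18, SE 0.21), inside the control range. Gsdmd, the pore-forming gasdermin D, had 1577, 1645 and 1180.0 against 734 and 1084 (-0.68, SE 0.19), and the NAD glycohydrolase Cd38 824, 1205 and 1088 against 361 and 686 (-0.99, SE 0.27).

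**Figure D3:**
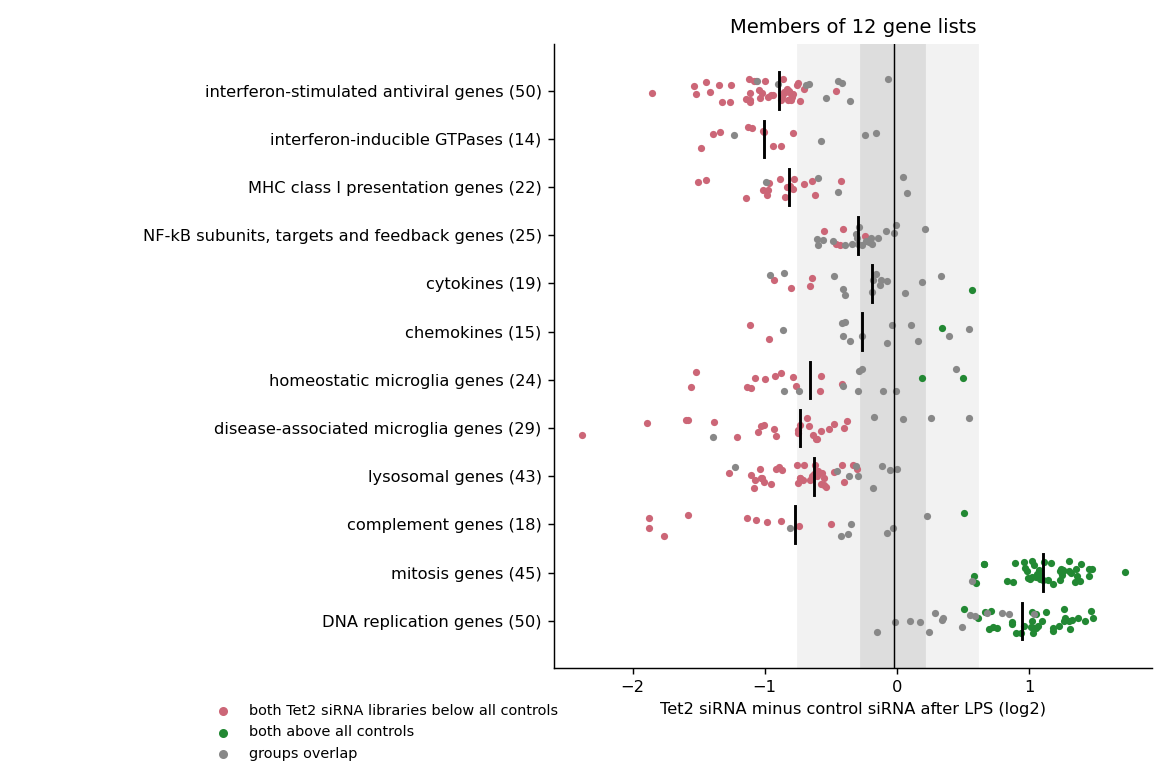
Fitted difference after LPS, Tet2 siRNA minus control siRNA, on the log2 scale (x axis) for each tested member of 12 lists (y axis, number tested in brackets), coloured by whether both Tet2 siRNA libraries lie outside the control range. Thick bars are list medians, the thin line the median of all genes (-0.02), and the shaded bands hold the central part of all genes, 25% to 75% (dark) and 5% to 95% (light). Interferon, MHC class I, microglial, lysosomal and complement genes lie to the left, NF-kB genes a little to the left, with a median of -0.29, cytokines nearer the centre, mitosis and replication genes to the right.

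Genes that mark macrophages and microglia were lower in the Tet2 siRNA cells. All 11 lineage markers tested had a difference below 0, with a median of -0.79, and 10 lay below all controls. Their summed normalised reads were 112287, 120920 and 103398 in the controls and 50017 and 77239 with Tet2 siRNA. In bulk RNA fewer cells that make these transcripts and less of them per cell cannot be told apart. Of 24 homeostatic microglia genes tested (6 more were filtered out) 13 lay below and 2 above the controls, with a median of -0.66, or -0.34 without Tet2 siRNA replicate 2. Aif1, which encodes the microglial marker IBA1, had 371, 419 and 264 against 93.4 and 102 (-1.56, SE 0.28, limma adjusted p = 0.112). Csf1r, the receptor that keeps microglia alive, had 11267, 10220.5 and 10148 against 5148 and 7445 (-0.76, SE 0.19), and the integrin Itgam (CD11b) 5714, 6166 and 4805 against 1819 and 3452 (-1.13, SE 0.28). Each was lower in both Tet2 siRNA libraries, replicate 2 more so.

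Among transcription factors of the lineage 12 of 24 lay below the controls and 1 above, with a median of -0.36, or -0.20 without Tet2 siRNA replicate 2. Maf was among the lower genes with the smallest p, at 2131, 2807 and 1935 against 702 and 1026 normalised reads (-1.38, SE 0.21, limma adjusted p = 0.0833, 0.0326 without control replicate 3). MAF is a basic leucine zipper factor of tissue macrophages. Atf3, a stress-induced repressor of inflammatory genes, had 16407, 11600.1 and 9287 against 5302 and 7014 (-0.98, SE 0.28), and Klf4 83.2, 66.9 and 56.9 against 29.6 and 36.5 (-0.68, SE 0.20).

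Of 29 genes of disease-associated microglia 24 (82.8%) lay below all controls and none above, with a median of -0.73, which was -0.42 without Tet2 siRNA replicate 2 and -1.11 without replicate 3. Axl, a receptor kinase for the clearance of dying cells, had the lowest difference of the list, at 616, 651 and 305 normalised reads in the controls and 40.5 and 118 with Tet2 siRNA, 15.1% of the control mean (-2.39, SE 0.38, limma adjusted p = 0.111, 0.0326 without control replicate 3). Lyz2, lysozyme, had 32101, 30269 and 27588 against 5538 and 17663 (-1.59, SE 0.43). Reads may have been split with its close copy Lyz1. Clec7a, the receptor Dectin-1, had 2479, 4698 and 2800.4 against 1194 and 1562 (-1.21, SE 0.31), and the metalloproteinase inhibitor Timp2 1355, 1411 and 1048 against 369.8 and 578 (-1.39, SE 0.28).

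Lysosomal genes formed an even group. All 43 were tested and had differences below 0, with a median of -0.63, and 34 (79.1%) lay below all controls. Per library the median was 0.12, -0.02 and -0.12 in the controls against -0.98 and -0.30, so that both Tet2 siRNA libraries lay below the controls and replicate 2 by far the more. Glb1, acid beta-galactosidase, had 3722, 2919 and 3056 against 1034 and 2104 (-1.10, SE 0.28). The protease Ctsh had 4155, 2282 and 2450.2 against 840.1 and 1605 (-1.27, SE 0.34), the mannosidase Man2b1 4533, 2575 and 2463 against 1065 and 2088 (-1.02, SE 0.32), and Psap, the saposin precursor, 43999, 38319 and 36100.3 against 16499 and 28207 (-0.87, SE 0.28). None of the 43 passed the adjusted test, with or without control replicate 3.

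Complement C1q, which tags synapses and debris for microglia, lay at the low end of its list. C1qb had 1894, 1347 and 1249.6 normalised reads in the controls and 284 and 589.8 with Tet2 siRNA (-1.76, SE 0.35, limma adjusted p = 0.122). C1qc had 1287, 1324 and 1421 against 261 and 450.1 (-1.87, SE 0.37), and C1qa 101, 29.8 and 43.2 against 2.34 and 1.07 (-1.88, SE 0.39). The 3 chains, which assemble into 1 protein, thus lay lower together, though the difference of C1qa rests on few reads. Of 18 complement genes tested 10 lay below the controls and 1 above, with a median of -0.77.

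Receptors for uptake and recognition were mostly lower or overlapping. The shares of all genes were 21.0% lower and 17.9% higher. Of 24 receptors of the TAM, scavenger and phagocytic group 11 lay lower and none higher (median -0.51). Mrc1, the mannose receptor CD206, had 4508, 5636 and 3262 against 842 and 1016 (-2.20, SE 0.42, 20.8% of the control mean), and the receptor kinase Mertk 336, 628 and 288 against 148 and 223. Of 30 Fc gamma and paired receptors 15 lay lower and 2 higher (median -0.52, or -0.29 without Tet2 siRNA replicate 2). Fcgr1, the high-affinity IgG receptor, had 1398, 1979 and 835 against 473 and 445 (-1.47, SE 0.28), and the sialic acid lectin Siglec1 1349.7, 1704 and 929.9 against 396 and 605 (-1.34, SE 0.27). Among chemoattractant and purinergic receptors 8 of 22 lay lower and none higher (median -0.41, or -0.27 without Tet2 siRNA replicate 2), with P2rx7, the ATP-gated channel upstream of the inflammasome, at 1423, 1796 and 1615 against 829 and 964 (-0.82, SE 0.19).

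Of 27 integrins and adhesion molecules 13 (48.1%) lay lower and 1 (3.70%) higher (median -0.50), against 21.0% and 17.9% of all genes. For 20 matrix proteases and inhibitors these were 11 (55%) and 1 (5%), with a median of -0.68. Without Tet2 siRNA replicate 2 these medians were -0.24 and -0.31, and without replicate 3 that of the integrins was -0.78. Mmp14, a membrane-bound metalloproteinase, had tight groups, 121, 119 and 111 normalised reads with control siRNA and 32.7 and 34.4 with Tet2 siRNA (-1.26, SE 0.19). Its unadjusted limma p was 1.61e-05, its adjusted p 0.0833, and 0.0326 without control replicate 3. Adam8, a leukocyte metalloproteinase, had 6275, 5217 and 4411 against 1494 and 2505 (-1.42, SE 0.30), and Itgax, CD11c, 5556, 6585 and 5184 against 1032 and 3488 (-1.58, SE 0.49). Outside the lists, Scel, which encodes sciellin, had the smallest p of all, with 317, 437 and 435 against 121 and 155 (-1.34, SE 0.20, limma adjusted p = 0.0833). F13a1, the coagulation factor XIII subunit of macrophages, had 10078, 7637 and 5208 against 1127 and 2426 (-2.13, SE 0.40). Xkr8, a phospholipid scramblase, had 1074, 1269 and 822 against 337 and 538 (-1.22, SE 0.22). BC013712, Slc45a3, Tdrd5, Rufy4 and Slc37a2 completed the 15 lower genes with the smallest p, with differences of -1.86, -1.30, -1.09, -1.35 and -1.19, of which that of Rufy4 rests on few reads (49.5, 28.8 and 21.6 against 1.56 and 3.22).

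Cell division genes were higher with Tet2 siRNA. Of 45 mitosis genes, all tested, 44 (97.8%) lay above all controls in both Tet2 siRNA libraries, against 17.9% of all genes, and none below, with differences from 0.57 to 1.73 and a median of 1.10. At an unadjusted limma p under 0.05 there were 44, against 6.90% of all genes, and 0 passed adjustment. Without control replicate 3, 8 passed, where 19 of all 12486 genes were called higher. The list's median deviation was -0.05, -0.19 and 0.32 in the controls and 1.52 and 0.75 with Tet2 siRNA, so control replicate 3 was the control nearest the Tet2 siRNA cells here as well. Of 50 DNA replication genes 35 (70.0%) lay above all controls and none below, with a median of 0.95, or 0.55 without Tet2 siRNA replicate 2.

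Cenpf, a kinetochore protein made before mitosis, had 1799.6, 1466 and 2362 normalised reads in the controls and 5888 and 3560.1 with Tet2 siRNA (1.30, SE 0.26, limma adjusted p = 0.122). The spindle motor Kif11 had 1085, 1254 and 1770.5 against 4138 and 2896 (1.35, SE 0.27), the spindle protein Aspm 576, 588 and 993 against 2306 and 1472 (1.36, SE 0.29), and the cyclin Ccna2 824, 802 and 1211 against 3535 and 1921 (1.46, SE 0.31). In all 4 the Tet2 siRNA values lay above the highest control, replicate 3, and Tet2 siRNA replicate 2 was highest. Among replication genes, Rrm1, the large subunit of ribonucleotide reductase, had 1307, 1599.8 and 1708 against 5154 and 2691 (1.27, SE 0.37). Dbf4, which activates the kinase of replication origins, had 926, 758 and 1035 against 2354 and 1475 (1.03, SE 0.23), its kinase partner Cdc7 92.2, 66.9 and 112 against 279 and 188 (1.13, SE 0.26), and the primase subunit Prim1 159, 153 and 172 against 526 and 255 (1.06, SE 0.30).

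The higher gene with the smallest p was Gemin6, a subunit of the complex that assembles splicing particles, with 121, 137 and 147 normalised reads against 471 and 293 (1.29, SE 0.22, limma adjusted p = 0.112). Brca2, of homologous recombination, had 168, 245 and 222 against 762 and 481 (1.41, SE 0.26). The replication-dependent histone genes Hist1h2ao and Hist1h2ap had differences of 2.04 (SE 0.38) and 1.97 (SE 0.41). Hist1h2ao had 186, 435 and 245 normalised reads in the controls and 1396 and 1057 with Tet2 siRNA. Their copies are near-identical and most such transcripts lack a poly(A) tail, so these values are uncertain. Cdca2 and Casc5, proteins of chromosomes and kinetochores, and the nucleoporin gene Tmem48 were higher as well, Cdca2 by 1.51 and Tmem48 by 1.02, with Casc5 at 675, 755 and 1160.4 against 3259 and 1807 normalised reads. Frat2, with 1.12, 3.09 and 6.87 against 26.5 and 20.4 normalised reads, rests on few reads.

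Promoters of 2 mitosis genes that hold the cell cycle homology region (TTTGAA, in either strand) are shown beside the interferon promoters. It is the element through which the DREAM and B-MYB complexes time late cell cycle genes. These genes had the smallest p among those that met the same conditions as the interferon genes, including an element inside the printed window. The cell cycle motif and that of E2F were added after the values were seen. The windows, again 120 bases before to 20 from the start, are chr1:189688067-189688206 (minus strand) and chr19:37376262-37376401 (plus strand) on GRCm38.p6, with the element in capitals.
Cenpf: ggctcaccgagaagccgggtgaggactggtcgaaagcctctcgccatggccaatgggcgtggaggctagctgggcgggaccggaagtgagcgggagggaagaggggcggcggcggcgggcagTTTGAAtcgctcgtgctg
Kif11: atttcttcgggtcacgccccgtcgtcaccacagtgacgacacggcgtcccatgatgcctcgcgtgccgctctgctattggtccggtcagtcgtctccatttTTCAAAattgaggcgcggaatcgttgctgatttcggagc
The element began at base 2 and -19 from the start base, and in Kif11 it lay in the reverse direction. Over the full windows it was in 27 of 39 mitosis genes with a promoter (69.2%), 8 of 41 replication genes and 14.4% of promoters of genes tested, and also in 5 of 10 GTPases, which lay lower. Mitosis genes with and without it had medians of 1.15 and 1.11. The E2F sites TTTCCCGC or TTTGGCGC were in 13 of 41 replication genes (31.7%), in 0 of 39 mitosis genes and in 3.59% of promoters of genes tested.

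The lower macrophage lists and the higher division lists differed in the same libraries, farthest in Tet2 siRNA replicate 2. Whether one bears on the other was not tested, and no count of cells or of cell cycle phases is among the values used here. Oxidative phosphorylation had 3 of 45 lower and 8 higher (median 0.07), the proteasome 0 of 31 and 6 (0.04), cholesterol synthesis 4 of 27 and 2 (0.08), and cytosolic ribosomal proteins 7 of 54 and 1 (-0.15). Leaving out Tet2 siRNA replicate 2 turned the medians of the proteasome (-0.05) and cholesterol synthesis (-0.04), leaving out control replicate 1 turned the latter too (-0.04), and without control replicate 1 that of the ribosomal proteins was -0.02. ER stress genes had 9 of 34 (26.5%) lower and 3 (8.82%) higher, with a median of -0.10, and NRF2 targets 10 of 29 (34.5%) and 2 (6.90%, median -0.28). Immediate early genes had 16 of 36 (44.4%) lower and 2 (5.56%) higher, with a median of -0.17. The lower ones included Myc at 662, 497 and 398 against 192 and 344 (-0.90, SE 0.26). Of 23 glycolysis genes 22 had a difference below 0 and 11 lay lower and 1 higher (-0.25, or -0.12 without control replicate 1 and -0.39 without Tet2 siRNA replicate 3). An example is Pfkfb3, which makes the activator of phosphofructokinase, at 2339.5, 2149 and 1674 against 1004 and 1166 (-0.89, SE 0.20).

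Set beside untreated cells, where the siRNA comparison uses other libraries, the lists fell into 2 patterns. Untreated Tet2 siRNA libraries lay below all 3 untreated controls at 9.82% of genes and above them at 7.82%, with 3 libraries per group. Across the 12486 genes the differences after LPS and without it had a Pearson correlation of 0.68 and a Spearman correlation of 0.62, a description over genes, which are not independent. Tet2 itself overlapped between the untreated groups (-0.28, SE 0.20). It had 1988, 2399 and 1827 normalised reads in untreated controls and 1453, 1988 and 1662 with Tet2 siRNA. Untreated Tet2 siRNA replicate 2 had the most Tet2 reads of its group. Its median deviations were the farthest of that group for mitosis (1.27) and lysosomal genes (-0.75). The macrophage and division lists had medians of the same sign in untreated cells. The untreated median was -0.46 for disease-associated microglia genes, -0.36 for lysosomal genes, -0.43 for complement genes, -0.72 for the lineage markers, 0.84 for mitosis genes (33 of 45 above all controls) and 0.55 for replication genes (3 of 50 above all controls). Untreated Tet2 siRNA replicate 1 lay among the untreated controls for replication genes (-0.09) and lysosomal genes (-0.02). Without untreated Tet2 siRNA replicate 2 these were -0.25, -0.20, -0.26, -0.50, 0.57 and 0.26, in the same order. C1qb, at 1271, 1226 and 2574 in untreated controls and 453, 332 and 487 with Tet2 siRNA, differed by -1.85 there and by -1.76 after LPS. Cenpf was at 2595, 2484 and 1946 and 4379.9, 6462 and 4895 untreated, a difference of 1.14 against 1.30 after LPS.

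The antiviral genes and the GTPases were the other pattern. Without LPS the median difference was 0.02 for the antiviral genes and 0.00 for the GTPases, with 3 and 0 members below all controls, and it stayed between -0.07 and 0.02 when either shallow untreated library was left out. Some of these genes passed the filter on low values through the LPS-treated libraries, and a gene near 0 reads can show no difference. In untreated libraries alone 45 of the 50 antiviral genes and 6 of the 14 GTPases passed it, with untreated medians of 0.0061 and -0.01 and medians after LPS of -0.88 and -1.17. Igtp had 33.8, 42.6 and 49.2 normalised reads in untreated controls and 43.9, 43.2 and 38.4 with Tet2 siRNA, a difference of 0.01 where that after LPS was -1.48. MHC class I genes were between, at -0.26 untreated and -0.82 after LPS. Their untreated median was nearer those of the antiviral genes and GTPases, at -0.13, without untreated Tet2 siRNA replicate 2. Interferons, receptors and signal transducers also lay between, at -0.23 untreated (-0.17 without that library) and -0.59 after LPS. Of these 21 genes, 5 lay below all untreated controls, against 9.82% of all genes, and 0 above, against 7.82%. Cd86 had a difference of -0.24 untreated and -1.07 after LPS.

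The difference between the siRNA effects after LPS and without it was tested directly. The labels give the lowered serum together with LPS and not for untreated cells, so an effect of serum and one of LPS cannot be told apart here. No gene passed at an adjusted p under 0.05 (0%), and the smallest adjusted p was 1.00. At an unadjusted p under 0.05 there were 183 genes with a lower difference after LPS (1.47%) and 98 with a higher one (0.785%). Among them were 25 of the 50 antiviral genes, 4 of 14 GTPases and 3 of 22 MHC class I genes, all lower. Of the members that passed the filter in untreated libraries alone, 22 of 45 antiviral genes and 4 of 6 GTPases were among them. The counts were 0 of 43 lysosomal, 0 of 18 complement, 0 of 45 mitosis and 0 of 50 replication genes in either direction. At the shares of all genes such lists would hold few members or none, so these counts do not show that a difference is absent. Median differences between treatments were -0.30 for lysosomal, -0.16 for complement, 0.32 for mitosis and 0.30 for replication genes. The 5 genes with the smallest p were Tapbpl (-1.15), Mx2 (-1.57), Rufy4 (-1.27), Ifit2 (-2.05) and Rin2, a guanine nucleotide exchange factor for RAB5 (-1.02). Mx2 had at most 5.79 normalised reads in any untreated library, where the log2 scale leaves little room for a difference. Rin2 was expressed in both states, with 3248, 3549 and 3134 in untreated controls and 3087, 3326 and 3633 with Tet2 siRNA, and after LPS 2167, 3031 and 1736 against 987 and 1233.

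**Figure D4:**
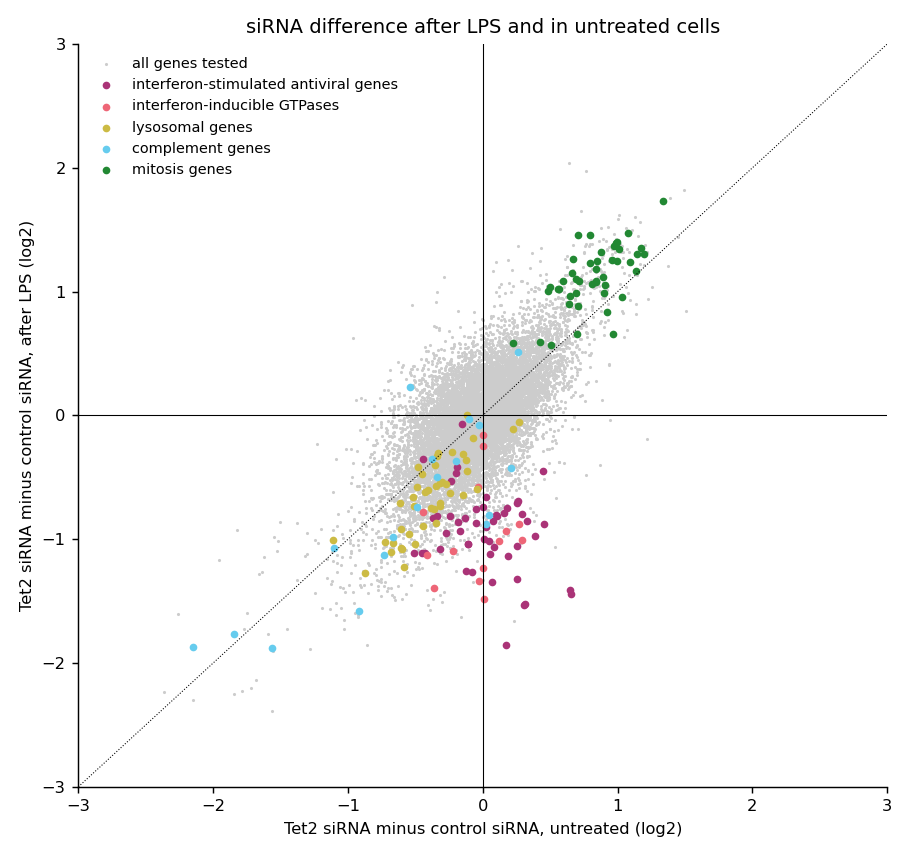
Fitted Tet2 siRNA minus control siRNA difference (log2) without LPS (x axis) and after LPS (y axis), 1 point per gene, all 12486 genes in grey and 5 lists in colour, with a dotted line where both are equal. Lysosomal, complement and mitosis genes have medians of the same sign on both axes, farther from 0 after LPS (-0.63, -0.77 and 1.10) than without it (-0.36, -0.43 and 0.84). Antiviral genes and GTPases have medians near 0 on the x axis and below 0 on the y axis. No gene lies outside the axes.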

How the data were processed

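RNA from 11 BV2 libraries was measured by polyadenylated RNA sequencing. The tools and build named in the submitters' processing notes are DESeq2, TopHat2 2.0.9 and Trim Galore 0.3.3, with mm9. How reads were counted, on which annotation and with or without strand is not given in the sources used here, so overlapping and antisense genes are uncertain. The authors deposited 1 table of 26061 genes, as variance-stabilised log2 values with a floor of 4.02 at 0 reads. Undoing the transform gave whole reads, within 0.01, for 100% of values, and the printed normalised reads, which are not corrected for length. The log2 scale understates changes of genes with few reads.

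Differences and tests came from limma 3.58.1 (R 4.3.3) on the deposited log2 values, with 4 group means over all 11 libraries, a variance trend, two-sided moderated tests and Benjamini-Hochberg adjustment, called under 0.05. Genes were kept where at least 2 libraries lay 1 log2 unit above the floor, which left 12486. The procedure was tested on simulated data. Groups were taken from the labels. Members and lists (31 gene lists, 6 marker lists) were chosen with earlier results of these data known, and list counts are descriptions. Named genes were 13 fixed ones, the 15 lower and 12 higher genes of smallest p whose groups did not overlap, up to 4 such members per list, and the 5 of smallest p for the difference between treatments. Names with Gm and a number, ending in Rik, over 12 letters or turned into dates (25) were left out. Promoter sequences are RefSeq's on GRCm38.p6, matched by symbol, and no coordinates were taken from the table, which gives none. Transcript length and GC content came from GENCODE transcripts and matched 97.7% of genes tested. Alternatives were other filters, scalings and variance models, library weights, a replicate block, voom on recovered reads, log2 of reads plus 1, removal of length and GC trends and leaving out each library. Counts of separated groups without each library, untreated medians without the shallowest libraries, and those of members passing the filter in untreated libraries alone, were added after the data had been seen.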

Additional observations from a re-analysis of the deposited data

How the results depend on the processing

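The number of genes called after LPS depended on the setting. Limma called 0 lower and 0 higher genes with no filter, a stricter filter, quantile normalisation, median centring, no variance trend, LPS-treated libraries alone and voom on recovered reads. It called 1 lower with length and GC trends removed, 4 lower with library weights and 2 lower on log2 of normalised reads plus 1, and 0 higher in each. Leaving out single libraries gave 0 to 101 lower and 0 to 19 higher, the highest without control replicate 3 after LPS. The difference between treatments gave 0 under every alternative run. Genes with separate groups ranged from 3236 to 4494 lower and from 2753 to 3930 higher when a library was left out, which fewer libraries raise by construction. Of these genes 54.0% were lower, and 45.7% after quantile normalisation. That scaling turned the signs of Tnf (0.13), Ccl2 (0.079) and Rpl4 (0.0010), and gave medians of -0.42 for disease-associated microglia genes, -0.42 for lysosomal and -0.59 for complement genes. The NF-kB median was -0.18 with length and GC trends removed. The homeostatic median was -0.77 on log2 of reads plus 1, -0.49 without a filter, -0.75 with the stricter one and -0.78 with voom. With libraries left out in turn, differences ranged from -0.0084 to 0.15 for Tet3, -0.37 to 0.21 for Tnf, -0.43 to 0.034 for Il1b, -0.79 to 0.11 for Il6 and -0.39 to 0.28 for Ccl2. Medians then ranged from -0.44 to -0.13 for NF-kB genes, -0.95 to -0.34 for homeostatic, -1.11 to -0.42 for disease-associated microglia, -0.98 to -0.30 for lysosomal and -0.94 to -0.56 for complement genes, and from 0.75 to 1.52 for mitosis and 0.55 to 1.36 for replication genes. Of 143 named genes 137 kept their sign under all 22 alternatives. The labels share only the numbers 2 and 3 between the groups, and deviations of equal numbers correlated at 0.01 and -0.18. With 2 Tet2 siRNA libraries, deviations from their mean mirror each other. These correlations therefore cannot tell whether equal numbers mark a shared culture or batch. The replicate block called 0 genes in either direction and gave a replication median of 0.78. The causes were not tested.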
